A study of Rattus norvegicus with 18 samples.

Results

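The kidneys of 6 diabetic nephropathy model animals given TSK (Treat) were compared with those of 6 untreated model animals (DN), across all expressed genes. These 12 libraries, 1 per animal, were chosen by their labels out of 18, and no measured value entered the choice. Model animals of both groups had received a high-fat diet and an injection of streptozotocin (STZ). Treated animals then received TSK by mouth at 500 mg/kg per day for 4 weeks. The remaining 6 libraries came from control animals on ordinary feed that were gavaged with the solvent (Ctrl). They enter the estimate of the spread between animals and are shown beside the results. The labels give no strain, sex or age, do not say what TSK contains, and do not say whether the DN animals were gavaged.

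Diabetic nephropathy is the kidney damage that follows long exposure to high blood glucose, with injury to the glomerular filter, loss of albumin into the urine and scarring between the tubules. STZ is a toxin taken up by the insulin-producing beta cells of the pancreas, and a high-fat diet adds insulin resistance, so the combination is widely used to model diabetes in rodents. Most of the RNA of a whole kidney comes from tubule cells, above all from the proximal tubule, which takes back glucose, salt and filtered protein. In such bulk RNA, fewer cells of a type and less RNA per cell cannot be told apart.

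The labels call the animals rats, while all 55335 identifiers of the count table are mouse Ensembl gene identifiers and the submitters' processing notes name mouse genome builds. No gene names stand beside the identifiers in the file, and 0 of them matched the rat gene table used here. Genes are therefore described by level, direction and pattern across the libraries, with 2 identifiers printed per direction. The kidney label could not be set against marker genes, and no RefSeq sequence could be matched to an identifier.

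Some libraries stood apart from the rest of their group. Treated library 1 had a median correlation of 0.945 across genes with the other treated libraries, against 0.966 to 0.971 for the other 5, and scored 84.5 on the first principal component of the 12 libraries (21.1% of the variance), where the others lay between -35.3 and 26.0. Treated libraries 3 and 5 shared a set of 20 genes at more than 5 times the level of any other library, as described below. Total counts ran from 25505257 to 35275498 in DN and from 22040987 to 28135824 in Treat (exact permutation test, two-sided, p = 0.013, adjusted p = 0.0303 by Benjamini-Hochberg over 7 library measures). The TMM scaling factors averaged 1.057 ± 0.0498 in Treat and 0.964 ± 0.0406 in DN (SD, n = 6 each; exact p = 0.00433, adjusted 0.0227). On the third component (13.4%) the groups differed in mean but overlapped, with scores of 18.7 ± 15.5 for Treat against -18.7 ± 21.2 for DN (mean ± SD, n = 6 each; exact p = 0.00649, adjusted 0.0227), and treated library 1 lay below DN libraries 1 and 2. On the first component the difference did not pass the test (exact p = 0.723, adjusted 0.771).

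Of 19233 genes with enough counts to be tested, 268 (1.39%) differed between Treat and DN by edgeR's quasi-likelihood test at a Benjamini-Hochberg adjusted p under 0.05. The treated kidneys had higher levels of 103 of these genes (0.536%) and lower levels of 165 (0.858%). The median log2 fold change was 0.64 for the genes called higher and -0.73 for those called lower, against a median of -0.01 and quartiles of -0.17 and 0.17 over all genes tested. Most changes were thus below 2-fold, and only 23 genes were called and at least 2-fold higher (0.120%) and 47 called and at least 2-fold lower (0.244%). With 1 library left out, the former ranged from 5 (without DN library 4 or treated library 3) to 46 (without treated library 1), and the latter from 29 (without treated library 3) to 132 (without treated library 1). The genes called lower together took 4.43% ± 0.387 of a library's counts in DN and 3.33% ± 0.190 in Treat, while those called higher held 0.283% ± 0.0153 in DN and 0.505% ± 0.0640 under treatment (n = 6 libraries a group, ± SD). The same contrast chose the genes, so these shares are descriptions.

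The number of calls depended on the libraries fitted. It was 446 without treated library 1, 119 without treated library 3, 160 without treated library 6, and 107 (46 higher, 61 lower) with treated libraries 3 and 5 both left out. It was 152, 119, 97 and 125 without DN library 1, 2, 4 or 6, and 164 without control library 6. Fitting only the 12 DN and Treat libraries gave 116 calls (49 higher, 67 lower). Scaling by library totals alone left out the factors that edgeR derives from most genes (TMM). Of the calls, 84.4% were then higher, against 38.4% with the factors. The median of all genes moved by 0.13 on the log2 scale as well.

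The share of genes called was larger at higher levels of expression. Levels are given as CPM, the count of a gene scaled to a common library size, and classes use the mean over the 12 libraries. Among the 1524 genes at 100 CPM or more, 8 were called higher and 38 lower (3.02%). Among the 8254 genes from 10 to 100 CPM the calls were 63 higher and 82 lower (1.76%), and among the 6082 genes from 1 to 10 CPM they were 28 and 40 (1.12%). Only 4 higher and 5 lower calls came from the 3373 genes under 1 CPM (0.267%), where the median log2 fold change was 1.70 among the rises and -2.06 among the falls. At 100 CPM or more the median log2 fold change of the genes called lower was -0.62. The excess of falls in this class depended on the scaling, since library totals alone gave 50 higher and 30 lower calls there.

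The intervals bounded the treatment difference for the genes tested in each class, called or not. The median standard error of the log2 fold change was 0.11 at 100 CPM or more, 0.11 from 10 to 100 CPM, 0.22 from 1 to 10 CPM and 0.39 below. The 95% confidence interval of the Treat minus DN difference lay wholly within 2-fold in either direction for 94.9% of the genes at 100 CPM or more and 95.8% of those from 10 to 100 CPM. It did so for 73.4% of genes from 1 to 10 CPM and 35.4% of those under 1 CPM. For most genes above 10 CPM, a 2-fold treatment difference between these groups was therefore outside the interval, while for most genes under 1 CPM it was not. These intervals rest on the spread over all 18 libraries. The controls among them spread less (median standard deviation of log2 CPM 0.213) than DN (0.275) or Treat (0.274). Intervals from a fit of the 12 DN and Treat libraries alone, which called 116 genes, are not given here.

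**Figure D1:**
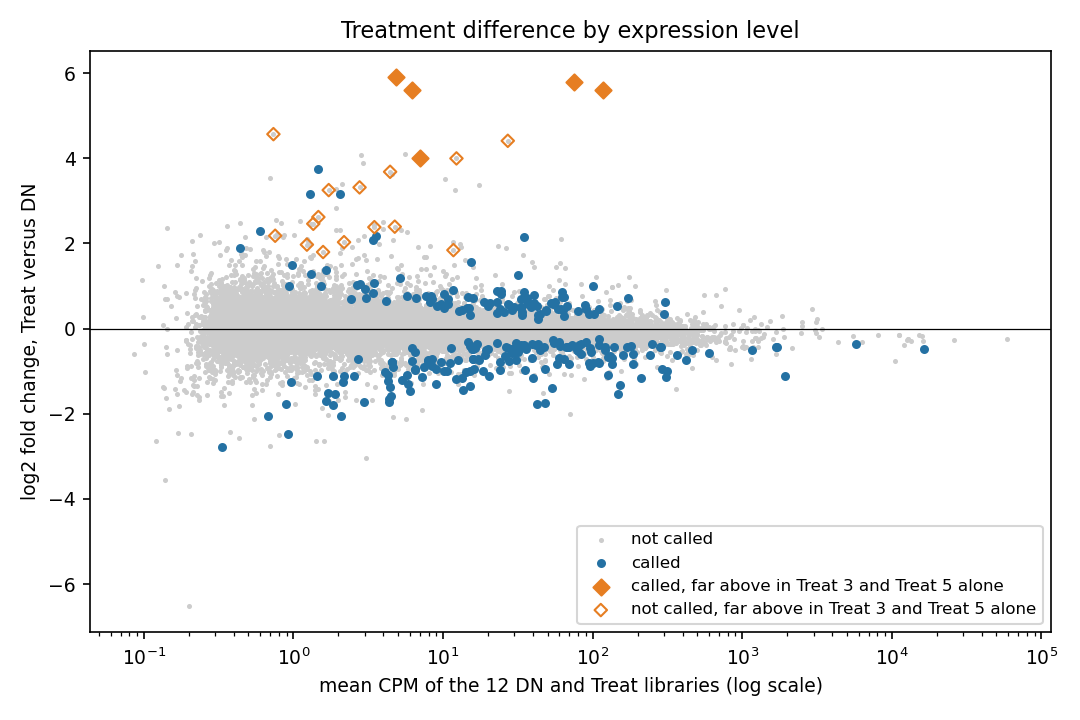
Each point is 1 of the 19233 genes tested, with its mean CPM over the 12 DN and Treat libraries (horizontal, log scale) and its log2 fold change, Treat versus DN (vertical). Called genes are blue, and diamonds mark the 20 genes far above all other libraries in treated libraries 3 and 5, filled for the 5 that were called, which have the largest fitted rises.

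The largest fitted rises belonged to 2 treated animals. The 5 called genes with the largest log2 fold changes (5.90, 5.78, 5.60, 5.60 and 4.01; adjusted p from 0.0277 to 0.0493) all had treated libraries 3 and 5 as their 2 highest. The gene ranked 4 stood at 623 CPM in treated library 3 and 735 CPM in treated library 5, and between 4.33 and 8.28 CPM in the other 10 DN and treated libraries. The gene ranked 2 stood at 330.2 and 548 CPM in these libraries, against 0.460 to 9.68 CPM in the other 10. The gene ranked 1 reached 28.6 and 27.5 CPM in them and at most 0.954 CPM elsewhere. In 4 of the 5 genes 1 further treated library lay above the DN range, at 9.68 CPM or less, and the remaining treated libraries did not.

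**Figure D2:**
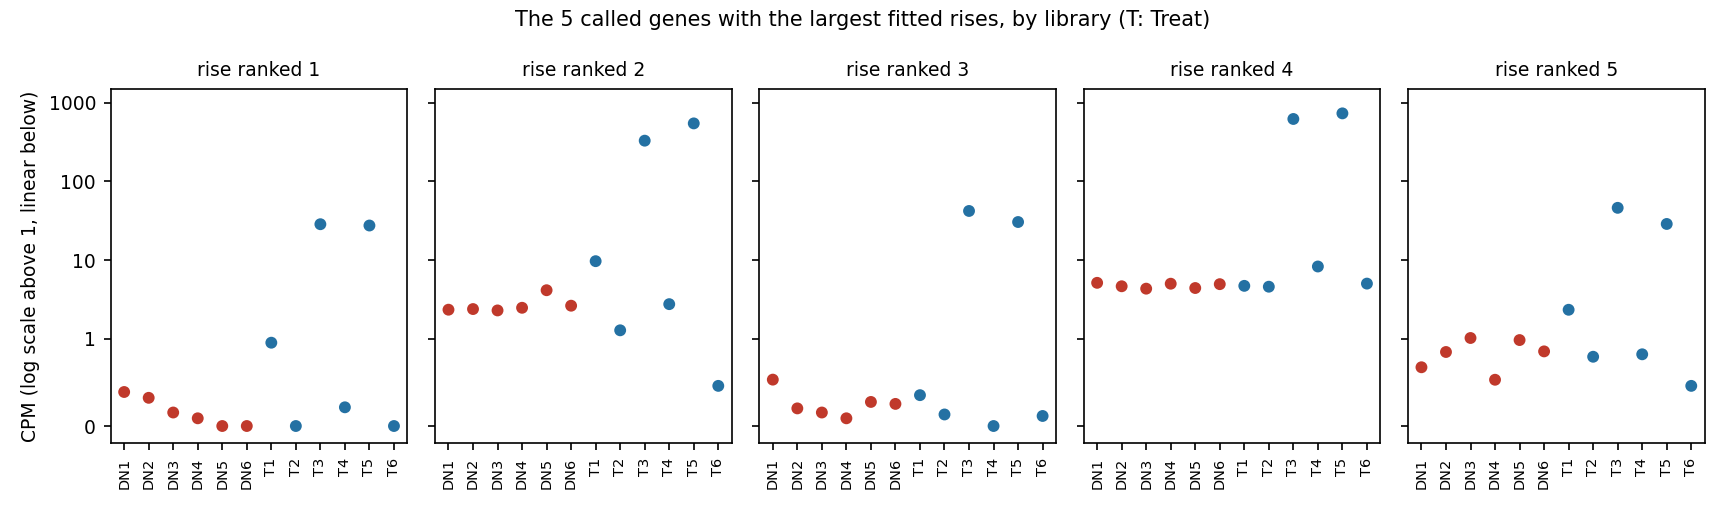
CPM of the 5 called genes with the largest fitted rises in each DN (red) and treated (blue, T) library, on a scale that is logarithmic above 1 CPM and linear below. Treated libraries 3 and 5 are far above the other 10 in every panel, as for the gene ranked 4 with 623 and 735 CPM against at most 8.28.

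These 5 belonged to a larger set. In total 20 tested genes stood at 1 CPM or more in both treated libraries 3 and 5 and at more than 5 times the highest of the other 16 libraries, controls included. Among all 153 pairs of libraries, 4 pairs had any such gene, and the next highest number was 3. Together the 20 genes held 0.153% of the counts of treated library 3 and 0.184% of those of treated library 5, and 0.00161% to 0.00491% in the other 16 libraries. Their log2 fold changes lay between 1.80 and 5.90, and 5 of the 20 were called, beside 1.39% of all genes tested. The 20 genes were chosen for their high levels in these 2 treated libraries. The choice fixed the direction, so the fold changes and calls are descriptions. For the same reason a fit without the pair is no test of the 20 genes. Which tissue or cell type these genes mark cannot be read from identifiers alone and was not tested.

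The genes ranked 6 to 8 among the rises (log2 fold changes 3.76, 3.16 and 3.15) were spread over other libraries as well. Each had treated library 2 as its highest or second highest, with 4.36, 9.25 and 5.33 CPM there. Treated library 3 stood at 6.81, 6.84 and 3.66 CPM for these genes, and treated library 5 at 0, 0.676 and 3.72 CPM. The DN libraries lay at 0.475 CPM or below for the gene ranked 6, at 1.69 CPM or below for the gene ranked 7 and at 0.512 CPM or below for the gene ranked 8. These rises too were uneven among the treated animals, with 3 or 4 of the 6 above every DN library.

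Apart from such genes, most called genes had 5 or 6 treated libraries beyond the DN range. The test that chose these genes favours separated groups. The counts therefore describe the calls and do not test whether the treated animals responded alike. Of the 103 genes called higher, 60 had all 6 treated libraries above all 6 DN libraries, and 26 more had 5 of them above. Of the 165 genes called lower, 96 had all 6 treated libraries below every DN library and 53 more had 5. Over all genes tested, 347 (1.80%) showed no overlap of the 6 and 6 libraries, 148 higher (0.770%) and 199 lower (1.03%) in Treat, and 191 of these did not pass the test. Only 10 called genes had 3 or fewer treated libraries beyond the DN range.

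Each treated library took part in these differences. Measured against the DN mean, the median shift of the genes called higher was between 0.48 (treated library 5) and 0.76 (treated library 1) on the log2 CPM scale. The median shift of the genes called lower was between -0.53 (treated library 4) and -0.87 (treated library 1). The DN libraries themselves lay between -0.07 and 0.08 for the first and between -0.15 and 0.14 for the second set. Treated library 1 was the lowest of the 6 for 82 of the 165 falling genes and the highest for 33 of the 103 rising ones. Treated library 6 was the highest for another 31. Since the genes were chosen by this contrast, the gap between the groups is fixed by the choice, and only the differences among the treated libraries are informative.

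**Figure D3:**
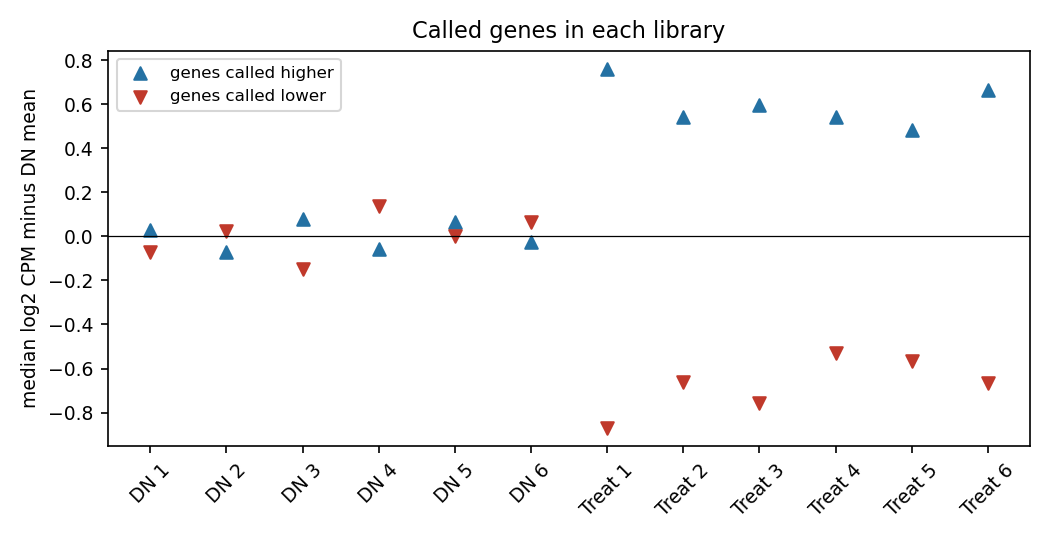
Median, over the 103 genes called higher (upward triangles) and the 165 called lower (downward triangles), of log2 CPM in each library minus the DN mean. The treated libraries range from 0.48 to 0.76 and from -0.53 to -0.87, with treated library 1 at both extremes.

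Treated library 1 also held the most genes whose level in the treated group came mainly from 1 library. For 193 genes tested it carried more than 50% of the summed CPM of the treated group, against 8 to 23 genes for each of the other treated libraries. Of these 193, 0 were called by edgeR with all libraries, beside 1.39% of all genes tested. Genes chosen for a high level in 1 library have a wide spread in the treated group, which the test weighs against a call. The 0 is therefore a description. The median standard deviation of log2 CPM between animals was 0.274 in Treat and 0.218 without library 1, 0.275 in DN and 0.213 in Ctrl.

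Of the falls, ENSMUSG00000066071 was among the steepest for a well-expressed gene. In DN it ranged from 51.6 to 97.4 CPM with a median of 74.8, and in Treat from 7.24 to 43.1 CPM with a median of 20.5. All 6 treated libraries lay below all 6 DN libraries, with treated library 5 the closest to them and treated library 1 the farthest. Its log2 fold change was -1.74 (SE 0.33, 95% confidence interval -2.44 to -1.04; edgeR, adjusted p = 0.0150). In Ctrl it stood between 1.10 and 4.49 CPM, so that even the lowest treated library was above every control. Without treated libraries 3 and 5 the log2 fold change was -2.03 (adjusted p = 0.0176).

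ENSMUSG00000030364 showed a fall of similar size from a level that the controls shared. Its DN libraries ranged from 39.6 to 94.8 CPM (median 63.3) and its treated libraries from 8.27 to 26.0 CPM (median 20.6), again without overlap. The log2 fold change was -1.76 (SE 0.31, 95% confidence interval -2.42 to -1.10; edgeR, adjusted p = 0.00869). The control libraries ranged from 20.9 to 95.1 CPM with a median of 60.9. The lowest of them, control library 4, lay within the treated range. Without treated libraries 3 and 5 the log2 fold change was -1.71 and the adjusted p 0.0581.

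**Figure D4:**
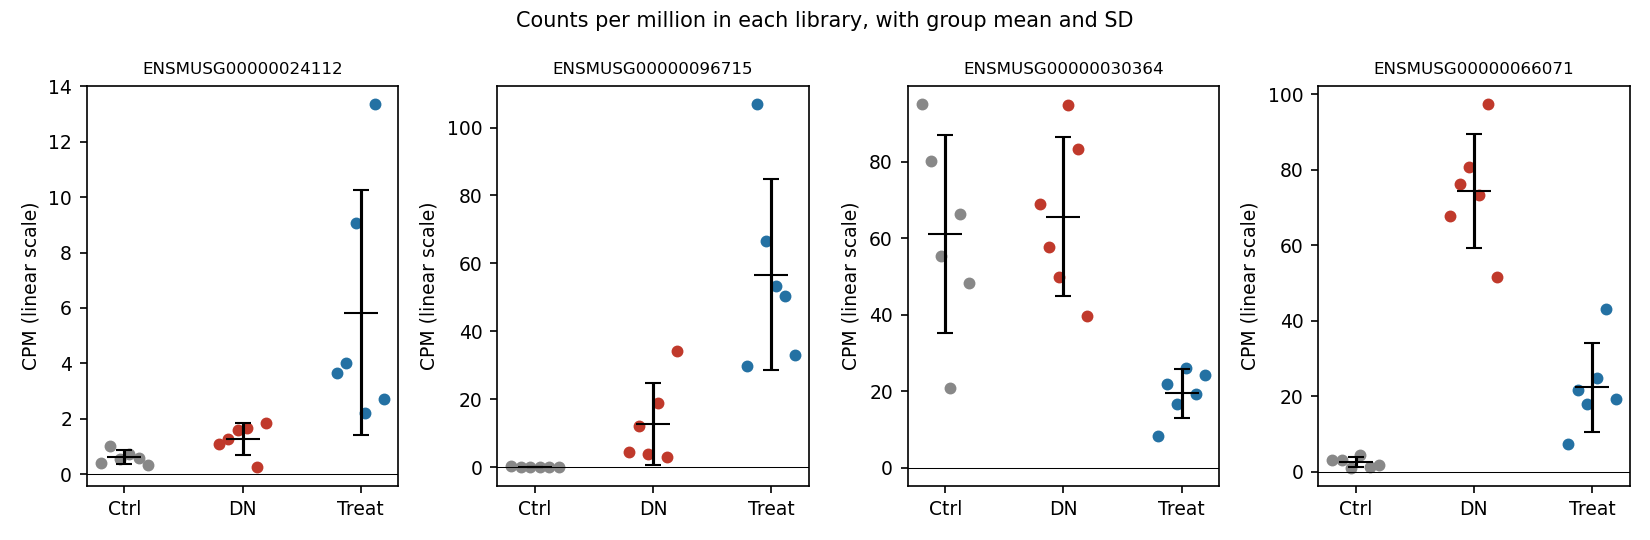
CPM of the 4 printed identifiers in each control, DN and treated library (points, linear scale), with the group mean and SD as bars (n = 6 each). For both falling genes all treated libraries lie below all DN libraries, and ENSMUSG00000024112 shows treated libraries 3 and 5 above the rest of the group.

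Of the rises, ENSMUSG00000024112 was weakly expressed. It ranged from 0.236 to 1.84 CPM in DN (median 1.43) and from 2.21 to 13.4 CPM in Treat (median 3.82), without overlap. Treated libraries 5 and 3 were the highest, with 13.4 and 9.06 CPM, the same libraries as in the set of 20 genes, and the other 4 averaged 3.15 ± 0.824 CPM (SD, n = 4). The log2 fold change was 2.18 (SE 0.46, 95% confidence interval 1.21 to 3.15; edgeR, adjusted p = 0.0258). Without libraries 3 and 5 it was 1.29 and the adjusted p 0.159. Leaving out the highest libraries of the group had to lower the rise, so this fit is no test of it. In Ctrl the gene ranged from 0.329 to 1.03 CPM.

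ENSMUSG00000096715 was all but absent from the controls, where 1 library had 7 counts and the others none. It ranged from 3.03 to 34.1 CPM in DN (median 8.26) and from 29.7 to 106.9 CPM in Treat (median 51.9). The groups overlapped, because DN library 6 (34.1 CPM) was above treated libraries 1 and 6. The log2 fold change was 2.15 (SE 0.52, 95% confidence interval 1.06 to 3.23; edgeR, adjusted p = 0.0468). The call was lost in 20 of 29 alternative settings, with adjusted p up to 0.124, while the log2 fold change stayed between 1.87 and 2.73.

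A smaller core of genes kept its call across the listed analyses. In each of 26 other analyses, listed with earlier results of these data known (other tools, scalings and filters, a fit of the 12 libraries, a replicate block, and each of the 18 libraries left out in turn), 64 of the 268 genes were called, 17 higher and 47 lower. Their median log2 fold changes were 0.69 and -0.96. Of these 64 genes, 60 had no overlap between the groups, beside 1.80% of all genes tested. A call in every such fit favours separated groups, so this count is a description. In 49 of the 64 the group with the higher level averaged 10 CPM or more. For comparison, the median of the mean CPM over the 12 libraries was 10.5 for all genes tested. It was 24.1 for the genes called higher and 29.0 for those called lower. Falls of at least 2-fold numbered 23 among the 64 and rises of at least 2-fold 1. ENSMUSG00000030364 and ENSMUSG00000066071 were in this core, and both printed rising genes were not.

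**Figure D5:**
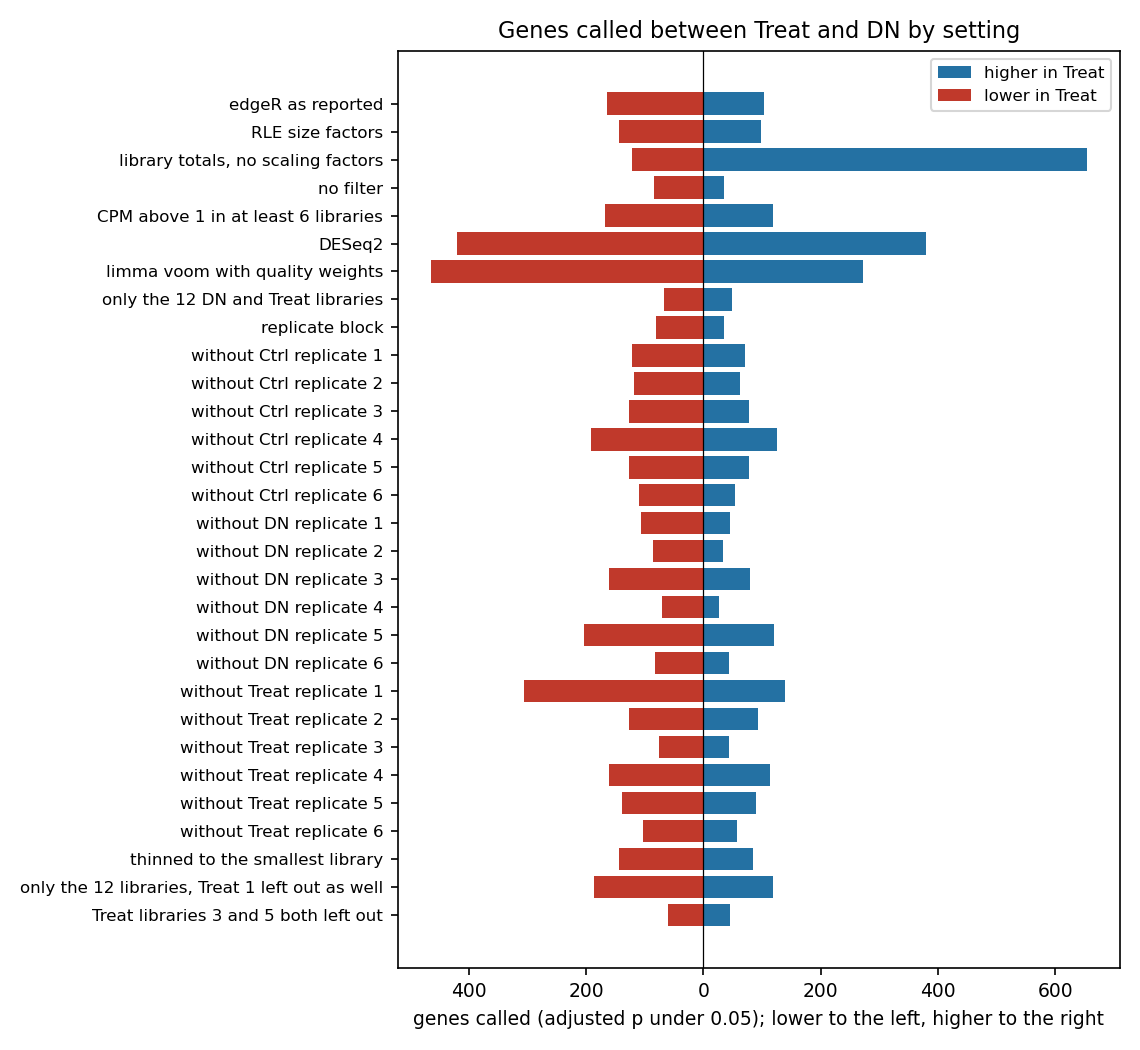
Genes called higher (blue, right) and lower (red, left) between Treat and DN under each setting, at an adjusted p under 0.05. The reported fit called 103 and 165, library totals without scaling factors called 654 and 121, and leaving out 1 library gave between 97 and 446 calls in all.

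Genes that mark the phases of the cell cycle in mouse embryonic stem cells were the only gene lists whose identifiers could be matched. These lists were built from relative expression in each phase and not from function. In adult kidney, where few cells divide, their members need not follow the cycle. Of 138 tested members of the G1 list, 2 were called higher and 1 lower in Treat than in DN, against 1.39% called over all genes. The median log2 fold change was -0.06, beside -0.01 over all genes tested. For the S list the calls numbered 0 among 104 genes by edgeR, with a median of 0.02. At an unadjusted edgeR p under 0.05, 10 of these genes were higher and 6 lower. The G1 list had 9 and 12, and the G2M list 4 and 7. Over all genes tested that threshold took in 16.4% (1412 higher and 1736 lower). DESeq2 called 2 members of the S list higher and 1 lower, limma voom 2 lower, and edgeR with library totals 6 higher. Over all 19233 genes the same settings called 799, 737 and 775 (654 higher with library totals). For the G2M list the edgeR calls were 0 higher and 2 lower among 99, with a median of -0.02. The 2 lower calls were lost in the fit of the 12 libraries, without a filter, with the replicate block, and without control library 1, 2, 5 or 6, DN library 1, 2 or 4, or treated library 3 or 6. Library totals gave 4 higher calls for G2M and 5 for G1. Over the 29 alternatives the calls ranged from 1 to 5 higher and 1 to 4 lower for G1, from 0 to 6 and 0 to 2 for S, and from 0 to 4 and 0 to 3 for G2M.

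The mean log2 CPM of each list differed little between the groups. For the G1 list it ranged from 4.60 to 4.74 in DN and from 4.60 to 4.72 in Treat, for the S list from 3.86 to 4.03 and from 3.83 to 4.02, and for the G2M list from 2.67 to 2.85 and from 2.49 to 2.79. The groups overlapped for all 3 lists. Scaled by library totals alone, the list medians were 0.07 (G1), 0.14 (S) and 0.11 (G2M), beside 0.13 for all genes. The medians of G1 and G2M were thus negative under one scaling and positive under the other, while under both scalings G1 and G2M lay below the median of all genes and S above it.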

How the data were processed

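Polyadenylated kidney RNA was sequenced in 18 libraries, with SMARTER library chemistry per the labels' protocols. The authors deposited 1 table of raw counts per gene identifier. The builds GRCm38 and mm10 come from the submitters' processing notes, and for the aligner, counter and strand setting the entry is: not given in the sources used here. Columns were assigned by library name, groups and replicate numbers by title. Nothing in the labels ties numbers across groups. P-values rest on the spread between these animals. For the gene tests this spread was estimated over all 18 libraries. The controls in that estimate spread less (median standard deviation of log2 CPM 0.213) than DN (0.275) or Treat (0.274).

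The analysis used R 4.3.3 and edgeR 4.0.16 (filterByExpr, TMM factors, quasi-likelihood F-test, Benjamini-Hochberg adjustment over all genes tested). All 18 libraries were fitted with 1 coefficient per group. Standard errors and 95% intervals were derived from the F statistics, and the prior count of log2 CPM was 2. DESeq2 1.42.0 and limma 3.58.1 (voom with library quality weights) were alternatives. No 2 DN or treated libraries of one group agreed within sampling noise (chi-square per degree of freedom of 14.0 or more).

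Gene lists (79, holding symbols) could not be matched to identifiers and were not used. The members, lists and settings were chosen with earlier results of these data known. Printed identifiers are the 2 largest log2 fold changes per direction among called genes whose higher group averaged 5 CPM or more, with 5 or more of its 6 libraries above the other group's median (81 higher and 148 lower genes met this). The rule's condition on symbols could not be met and was dropped. Cell-cycle lists came from marker pairs installed with scran 1.30.0, taking genes with 10 or more pairs that came first in a net share of 0.8 or more in a phase and -0.5 or lower in another. Of 14440 identifiers averaging 50 counts or more, 7 pairs had counts within 3% in every library. Such pairs held 2 of the called identifiers and 0 of the printed ones, and their values are uncertain.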

Additional observations from a re-analysis of the deposited data

Results flagged for a closer look

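The TMM factor of DN library 5 was 0.886, below the other 5 DN libraries, the lowest of which had 0.964, a gap that made up 0.672 of the group's range. In 22 groups of 6 values examined in this way, chance flags about 1 in 20. Without this library 324 genes were called between Treat and DN.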

How the results depend on the processing

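The 268 calls (103 higher, 165 lower) moved with the tool and the fit. DESeq2 called 799 genes (379 higher, 420 lower), limma voom with quality weights 737 (272 and 465), library totals without scaling factors 775 (654 higher), no filter 119 (35 and 84), and the 12 DN and Treat libraries alone 116 (49 and 67). With treated libraries 3 and 5 both left out, a choice made after seeing the data, 107 were called (46 and 61). Leaving out 1 library in turn gave 97 to 446 calls, 27 to 140 higher and 70 to 306 lower. RLE size factors (242), CPM above 1 in at least 6 libraries (286) and counts thinned to the smallest library (229, added after seeing the data), as well as the 12 libraries without treated library 1 (305, likewise added), stayed within 1.5 times. Each alternative tested 257 to 268 of the 268 genes. Among those tested, 1 changed direction with treated libraries 3 and 5 left out, and 0 did in any other alternative. With the replicate number as a block, 117 genes were called (36 higher, 81 lower). Same-numbered DN and treated libraries had correlations of their deviations between -0.122 and 0.185, and 2 of 6 treated libraries correlated best with their own number, so the numbers are not treated as pairs. The direction of the 4 printed identifiers held in all 29 alternatives. The call of ENSMUSG00000024112 was lost in 8 of 29 and that of ENSMUSG00000030364 in 1. The cause of these shifts in number was not tested. The symbol lists could not be evaluated under any setting. The standard error of the log2 fold change was largest among genes under 1 CPM (median 0.39, against 0.11 at 100 CPM or more).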
